A study of Mus musculus with 2 samples.

Results

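The genes described here make, sense or break down prostaglandins in the injured mouse lung. They are Ptgs1, Ptgs2, Ptges, Ptgis, Hpgd, Ptger4 and Ptgfr, 7 of the 27998 genes in the deposited tables, and each was found by its symbol. They were chosen with their levels and shares of positive cells per cell type and library in view, so those values are given as a description and nothing is supported with them. C57Bl6 mice received bleomycin, which injures the lung and leads to fibrosis, on day 1 in both groups. One group was then given vehicle and the other navitoclax (ABT-263), which blocks BCL-2, BCL-W and BCL-XL, proteins that hold back cell death, from day 15 to day 20, and lungs were harvested on day 21. Lungs were digested with enzymes, and epithelium and stroma were sorted and pooled 1:1 ahead of Chromium 3' capture, so the ratio of epithelium to stroma was set by the pooling. Each group was 1 library, and neither the number nor the age or sex of the mice is stated in the labels.

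With 1 library per group there is no replicate check and no test between conditions. A level is the number of unique molecular identifiers (UMIs, tags that mark single captured RNA molecules) of a gene per 1000000 UMIs of a cell class (CPM), with an exact Poisson 95% interval. A share of cells has an exact Clopper-Pearson 95% interval, and a ratio of the navitoclax to the vehicle level an exact conditional 95% interval. All intervals cover counting error only, not the spread between mice. Those of levels and ratios take UMIs as independent and leave out the spread between cells too. After filtering, 7174 vehicle and 6228 navitoclax cells were kept, at medians of 10483 and 12588 UMIs per cell, and 20 barcodes occurred in both libraries. Cells were clustered without the 7 genes, and classes were named from marker genes, written as "-like". Fibroblast-like cells without a subclass pool 3 clusters that the naming rule left without a class. Clusters 20 and 28 scored highest for alveolar and cluster 25 for adventitial fibroblast markers. The libraries differed in heat shock genes: Hspa1a, an inducible chaperone gene, stood at 16.7 and 512 CPM in AT2-like cells and at 166 and 742 CPM in adventitial fibroblast-like cells with vehicle and navitoclax. The part of this difference in any result below was not tested.

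Prostaglandins are lipid signals made on demand from arachidonic acid, which phospholipases free from membranes. The cyclooxygenases encoded by Ptgs1 and Ptgs2 convert it to prostaglandin H2. Terminal synthases then set the product: Ptges encodes the inducible prostaglandin E synthase, and Ptgis encodes prostacyclin synthase. Ptger4 and Ptgfr encode receptors for prostaglandin E2 and prostaglandin F2 alpha. Hpgd encodes the dehydrogenase that begins the inactivation of prostaglandins once the transporter encoded by Slco2a1 has carried them into a cell. In the lung, prostaglandin E2 is known to restrain fibroblast growth and collagen production, and prostacyclin to relax vessels.

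The promoter of Ptgs2 and the start of its 3' untranslated region are shown first, beside the promoter of Ptgs1, because Ptgs2 is the inducible cyclooxygenase gene and these stretches hold elements of the kind through which it is known to be switched on and its RNA cleared. The promoter stretches run from 80 bases before to 30 bases after the annotated start, on the plus strand, at chr1:150099951-150100060 for Ptgs2 and chr2:36230346-36230455 for Ptgs1 (RefSeq, GRCm38.p6). Capitals mark a C/EBP palindrome (TTGCGCAA) and a cAMP-response half-site (CGTCA) that overlaps an E-box (CACGTG).
Ptgs2: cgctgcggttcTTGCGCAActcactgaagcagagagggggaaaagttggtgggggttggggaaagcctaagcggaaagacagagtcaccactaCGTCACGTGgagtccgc
Ptgs1: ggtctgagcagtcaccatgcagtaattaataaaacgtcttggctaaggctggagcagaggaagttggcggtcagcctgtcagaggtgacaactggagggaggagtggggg

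Motifs were searched on both strands in windows of 300 bases around 32851 RefSeq starts, and 6 of the 7 genes had a window. TTGCGCAA was in 60 windows (0.183%), CGTCA in 20.8% and CACGTG in 7.15%, and the Ptgs2 window held each. The Ptgs1 window held none of these 3, nor TATAAA (in 13.6% of windows) nor GGGCGG (in 35.7%), which says only that these letters are not there.

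The longest annotated 3' untranslated region of Ptgs2 is 2445 bases (GENCODE M21, GRCm38) and holds 14 copies of the AU-rich pentamer ATTTA, an element through which decay factors are known to shorten RNA life. Over 21173 genes the median was 1 copy, and 3.04% of genes had as many. Ptgs1, Ptges and Ptgis had 0 copies, Hpgd 4, Ptger4 5 and Ptgfr 14 in a longer region of 5122 bases. A dense run of 30 bases in Ptgs2, bases 12 to 41 of the region at chr1:150105794-150105823 on the plus strand, holds 4 copies in capitals, of which neighbours overlap.
Ptgs2 site: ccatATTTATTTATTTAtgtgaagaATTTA

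The genes differed in the cell classes that held them. AT2-like cells, the surfactant-making alveolar epithelium, held both cyclooxygenase genes and some Ptges, but almost no Ptgis, Hpgd, Ptger4 or Ptgfr. Fibroblast-like classes held Ptgis, and Ptges and the receptors at levels that differed between classes. Peribronchial ones held little Ptgfr and no more Ptges than AT2-like cells. All but the adventitial class also held Ptgs1, at 63.3 to 104 CPM with vehicle. Mesothelial-like cells held Ptgs1, Ptgis and Hpgd together. Ptgs2 lay in epithelium and in adventitial fibroblast-like cells, and Hpgd in mesothelial-like, peribronchial fibroblast-like and the few endothelial-like cells. Between the libraries, Ptgs2 was higher with navitoclax in AT2-like and transitional-like cells and lower in adventitial fibroblast-like cells.

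**Figure D1:**
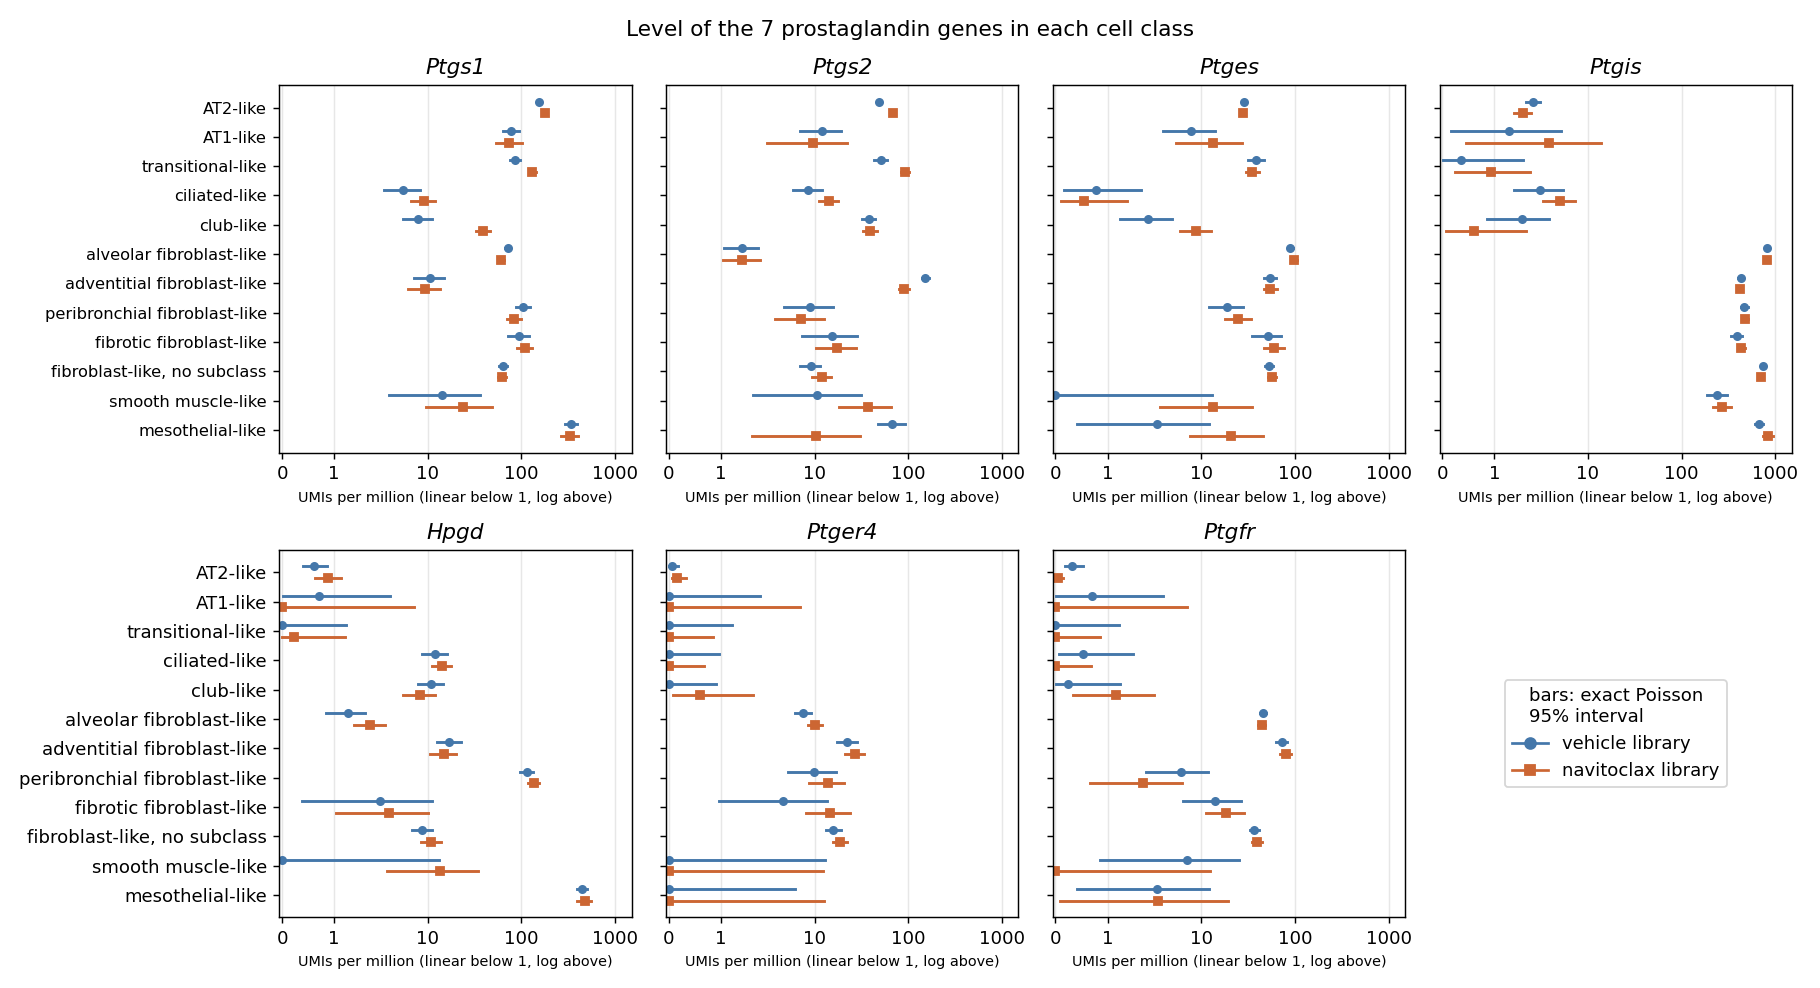
Level of each gene in CPM (horizontal axis, linear below 1 and logarithmic above) in 12 cell classes, with the vehicle library as circles, the navitoclax library as squares and bars for exact Poisson 95% intervals. Ptgis is at 2.61 and 2.01 CPM in AT2-like and 811 and 825 CPM in alveolar fibroblast-like cells, whereas Ptgs2 is at 1.67 and 1.70 CPM in alveolar and 153 and 90.5 CPM in adventitial fibroblast-like cells.

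Ptgs1 encodes cyclooxygenase-1, usually described as the constitutive form, and lies on the plus strand of chromosome 2 from 36230426 to 36252272 (GRCm38). In AT2-like cells it stood at 152 CPM (149 to 156) with vehicle and 179 CPM (175 to 183) with navitoclax, from 7502 and 8741 UMIs, and 81.3% (79.8 to 82.8%) and 86.0% (84.6 to 87.4%) of cells had a UMI. Mesothelial-like cells, the pleural lining, stood at 339 CPM (294 to 389) and 329 CPM (266 to 402) in 61 vehicle and 30 navitoclax cells. Their intervals lay above those of AT2-like cells in both libraries. Transitional-like cells, an injury state of alveolar epithelium led here by Sprr1a, Crct1 and Lgals3, stood at 86.0 CPM (75.4 to 97.6) and 131 CPM (120.0 to 142), and AT1-like cells, the flat gas-exchange epithelium, at 78.1 CPM (64.2 to 94.1) and 74.4 CPM (52.9 to 102). Most AT1-like cells were in cluster 11, led by Rtkn2, Akap5 and Clic5, which scored higher for transitional than for AT1 markers, and in the class AT2 markers summed to 56362 and 38352 CPM beside 21982 and 18366 CPM for AT1 markers. Airway epithelium was low with vehicle: ciliated-like cells stood at 5.45 CPM (3.37 to 8.33) and 9.03 CPM (6.68 to 11.9), and club-like cells at 7.89 CPM (5.40 to 11.1) and 38.9 CPM (32.5 to 46.3), with 93 and 80 cells. Club-like cells also differed between the libraries in Sftpc, a surfactant gene of AT2 cells, at 4087 and 28412 CPM, and the part of this in their Ptgs1 level was not tested.

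Among fibroblast-like classes, Ptgs1 set adventitial cells apart. Alveolar fibroblast-like cells, led by Cdo1, Hsd11b1 and Scn3a among other genes, stood at 71.6 CPM (67.3 to 76.2) with vehicle and 60.4 CPM (56.1 to 64.9) with navitoclax. Peribronchial fibroblast-like cells, led by Aspn and Hhip, stood at 104 CPM (87.4 to 123) and 83.4 CPM (70.1 to 98.5), fibrotic fibroblast-like cells, led by Spp1, Thbs4 and Grem1, at 94.3 CPM (72.2 to 121) and 109 CPM (89.7 to 131), and fibroblast-like cells without a subclass at 63.3 CPM (57.7 to 69.2) and 61.5 CPM (55.7 to 67.8). Adventitial fibroblast-like cells, led by Pi16 and Ccl11, held only 10.5 CPM (7.16 to 15.0) and 9.25 CPM (6.10 to 13.5), below the intervals of those 4 classes in both libraries. As a gauge of free RNA, Sftpc stood at 2059 CPM in vehicle alveolar fibroblast-like cells against 221124 CPM in AT2-like cells.

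Ptgs2 encodes cyclooxygenase-2 and lies on the plus strand of chromosome 1 from 150100031 to 150108227. Adventitial fibroblast-like cells, the named class with the highest level in the vehicle library, stood at 153 CPM (139 to 168) with vehicle and 90.5 CPM (79.9 to 102) with navitoclax, from 450 and 264 UMIs. The other fibroblast-like classes were far lower, at 1.67 CPM (1.07 to 2.48) and 1.70 CPM (1.05 to 2.60) in alveolar, 9.05 CPM (4.68 to 15.8) and 7.25 CPM (3.75 to 12.7) in peribronchial, 15.5 CPM (7.42 to 28.4) and 17.5 CPM (10.4 to 27.7) in fibrotic and 9.09 CPM (7.06 to 11.5) and 12.0 CPM (9.50 to 14.9) in cells without a subclass. Adventitial cells were thus the fibroblast-like class with the least Ptgs1 and the most Ptgs2. In mesothelial-like cells the level of 67.1 CPM with vehicle rested on 40 UMIs, 17 of them in 1 cell, beside 3 UMIs with navitoclax.

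In the alveolar epithelium, Ptgs2 stood at 48.3 CPM (46.4 to 50.2) with vehicle and 68.8 CPM (66.5 to 71.2) with navitoclax in AT2-like cells, and at 50.7 CPM (42.7 to 59.8) and 93.1 CPM (84.2 to 103) in transitional-like cells. The transitional-like cells also carried AT2 transcripts: 9 of 9 AT2 markers were at or above 20 CPM, summing to 216167 and 230368 CPM, beside 10 of 10 transitional markers at 4847 and 4670 CPM. Club-like cells stood at 38.2 CPM (32.4 to 44.7) and 39.6 CPM (33.0 to 47.0), ciliated-like cells at 8.56 CPM (5.89 to 12.0) and 14.2 CPM (11.2 to 17.7) and AT1-like cells at 12.1 CPM (7.03 to 19.3) and 9.54 CPM (3.10 to 22.3). The club-like and AT1-like intervals overlapped between the libraries, and the AT2-like and transitional-like ones did not.

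Ptges lies on the minus strand of chromosome 2 from 30889471 to 30929863. Alveolar fibroblast-like cells stood at 89.6 CPM (84.8 to 94.6) with vehicle and 98.6 CPM (93.1 to 104) with navitoclax, adventitial fibroblast-like cells at 54.4 CPM (46.3 to 63.5) and 54.5 CPM (46.3 to 63.6), and peribronchial fibroblast-like cells at 18.9 CPM (12.2 to 27.8) and 24.8 CPM (17.8 to 33.6). The order of these 3 classes was the same in both libraries, with no overlap between neighbours. Fibrotic fibroblast-like cells, at 51.0 CPM (35.1 to 71.7) and 60.3 CPM (46.2 to 77.3), and cells without a subclass, at 53.5 CPM (48.4 to 59.0) and 57.2 CPM (51.6 to 63.2), overlapped with adventitial cells. AT2-like cells held 28.5 CPM (27.1 to 30.1) and 28.1 CPM (26.7 to 29.7), and transitional-like cells 38.5 CPM (31.6 to 46.5) and 35.1 CPM (29.8 to 41.2). Ciliated-like cells had 3 and 3 UMIs, and club-like cells 11 and 29.

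Ptgis lies on the minus strand of chromosome 2 from 167191805 to 167240604 and was a gene of mesenchyme and mesothelium. It stood at 811 CPM (796 to 826) with vehicle and 825 CPM (809 to 841) with navitoclax in alveolar fibroblast-like cells, where 89.0% (87.6 to 90.3%) and 88.3% (86.6 to 89.8%) of cells had a UMI. Cells without a subclass stood at 743 CPM (724 to 763) and 699 CPM (679 to 719), peribronchial fibroblast-like cells at 468 CPM (431 to 506) and 477 CPM (444 to 511), adventitial fibroblast-like cells at 426 CPM (403 to 450.4) and 418 CPM (395 to 443) and fibrotic fibroblast-like cells at 387 CPM (340.2 to 438) and 435 CPM (396 to 477). The last 2 overlapped with each other in both libraries, and every one of the 4 lay below alveolar cells. Mesothelial-like cells stood at 674 CPM (610.1 to 744) and 842 CPM (739 to 955), and smooth muscle-like cells, 46 and 38 of them, at 240.4 CPM (187 to 305) and 273 CPM (217 to 339).

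In epithelium Ptgis was low, at 2.61 CPM (2.18 to 3.11) and 2.01 CPM (1.63 to 2.45) in AT2-like cells, 3.11 CPM (1.61 to 5.44) and 4.97 CPM (3.28 to 7.24) in ciliated-like cells and 1 and 4 UMIs in transitional-like cells. Of AT2-like cells 3.06% and 3.55% had a UMI, at median depths of 17970 and 19723 UMIs per cell, more than in alveolar fibroblast-like cells (6772 and 7053). Ptgis and Ptges, the 2 terminal synthases, were both highest in cluster 28 among 13 fibroblast-like clusters, at 1097 and 1052 CPM and at 137 and 135 CPM. Cluster 28 belongs to the class without a subclass and was shallow, at a median of 1990.5 UMIs per cell. Over those clusters Pearson's r of their log2 levels was 0.63 with vehicle and 0.50 with navitoclax, and Spearman's rho 0.73 and 0.62, a description of clusters that share a library.

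Hpgd lies on the plus strand of chromosome 8 from 56294585 to 56321043 and marked other cells. Mesothelial-like cells stood at 441 CPM (389.5 to 498) with vehicle and 471 CPM (395 to 557) with navitoclax, and peribronchial fibroblast-like cells at 115 CPM (97.1 to 134) and 135 CPM (118 to 154), where 36.0% and 36.6% of cells had a UMI. The 9 endothelial-like cells of each library held 40 and 73 UMIs, a level of 1525 and 2334 CPM. Adventitial fibroblast-like cells held 17.0 CPM (12.6 to 22.4) and 14.7 CPM (10.7 to 19.8), ciliated-like cells 11.9 CPM (8.74 to 15.9) and 14.2 CPM (11.2 to 17.7), club-like cells 10.9 CPM (7.88 to 14.6) and 8.21 CPM (5.41 to 12.0), cells without a subclass 8.69 CPM (6.71 to 11.1) and 10.9 CPM (8.57 to 13.7) and fibrotic fibroblast-like cells 2 and 4 UMIs. Alveolar fibroblast-like cells, at 1.39 CPM (0.849 to 2.15) and 2.43 CPM (1.64 to 3.47), lay below adventitial and peribronchial cells in both libraries.

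Hpgd was near 0 in the alveolar epithelium, at 0.608 CPM (0.410 to 0.868) and 0.882 CPM (0.638 to 1.19) in AT2-like cells and with 0 and 1 UMIs in transitional-like cells. The transporter gene Slco2a1 was present there without it, at 125 and 131 CPM in AT2-like, 103 and 132 CPM in transitional-like and 120.0 and 181 CPM in AT1-like cells. Mesothelial-like cells held both genes, with Slco2a1 at 810.3 and 835 CPM, as did the few endothelial-like cells, with Slco2a1 at 724 and 607 CPM.

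The receptor genes were mesenchymal. Ptgfr lies on the minus strand of chromosome 3 from 151796502 to 151837630. It stood at 72.4 CPM (63.0 to 82.8) with vehicle and 79.8 CPM (69.9 to 90.8) with navitoclax in adventitial, at 46.1 CPM (42.6 to 49.7) and 44.4 CPM (40.8 to 48.3) in alveolar and at 37.0 CPM (32.8 to 41.7) and 39.5 CPM (34.9 to 44.6) in fibroblast-like cells without a subclass. That last class is mixed: its cluster 25 held 83.9 and 89.6 CPM, the most among 13 fibroblast-like clusters. Fibrotic fibroblast-like cells held 13.9 CPM (6.36 to 26.4) and 18.5 CPM (11.1 to 28.9), and peribronchial ones only 6.03 CPM (2.60 to 11.9) and 2.42 CPM (0.659 to 6.19). AT2-like cells held 16 and 2 UMIs, ciliated-like cells 2 and 0 and transitional-like cells 0 and 0. Ptgfr was thus lowest in the fibroblast-like class in which Hpgd was highest, although with vehicle its interval there overlapped that of fibrotic cells.

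Ptger4 lies on the minus strand of chromosome 15 from 5206661 to 5244187. Its level was 22.4 CPM (17.3 to 28.5) with vehicle and 26.7 CPM (21.1 to 33.4) with navitoclax in adventitial and 7.57 CPM (6.22 to 9.14) and 10.2 CPM (8.51 to 12.2) in alveolar fibroblast-like cells, without overlap in either library. Cells without a subclass stood at 15.9 CPM (13.2 to 19.0) and 18.7 CPM (15.6 to 22.3), peribronchial fibroblast-like cells at 9.80 CPM (5.22 to 16.8) and 13.9 CPM (8.81 to 20.9) and fibrotic fibroblast-like cells at 4.64 CPM (0.957 to 13.6) and 14.6 CPM (8.17 to 24.1), the last from 3 and 15 UMIs. AT2-like cells held 3 and 8 UMIs, and transitional-like and ciliated-like cells 0 in both libraries. A count of 0 in 366 vehicle ciliated-like cells allows a share of cells with a UMI of up to 0.820% by a floor of 3 cells, and of up to 1.00% by the Clopper-Pearson interval. In all fibroblast-like cells thinned to 5000 UMIs, 13.5% of vehicle cells with a Ptger4 UMI also had a Ptgfr UMI, against 19.1% of the rest, and with navitoclax 10.8% against 18.0%.

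Ratios between the libraries were taken for genes with at least 50 UMIs over both libraries, in classes with at least 100 cells in each, and read against 1.5-fold. The share of all such genes past 1.5-fold in either direction is the background. In AT2-like cells 0 of 5 of the genes were past it (background 3.53%). The counts were 2 of 3, both higher with navitoclax, in transitional-like cells (background 6.24%) and in ciliated-like cells (4.0%), 1 of 6, higher, in alveolar fibroblast-like cells (4.10%) and 1 of 7, lower, in adventitial fibroblast-like cells (6.86%). They were 0 of 4 in peribronchial fibroblast-like cells (7.85%), 0 of 7 in fibroblast-like cells without a subclass (4.45%) and 0 of 7 over all fibroblast-like cells (3.87%). Since the genes were chosen on this contrast, nothing is read from these counts.

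**Figure D2:**
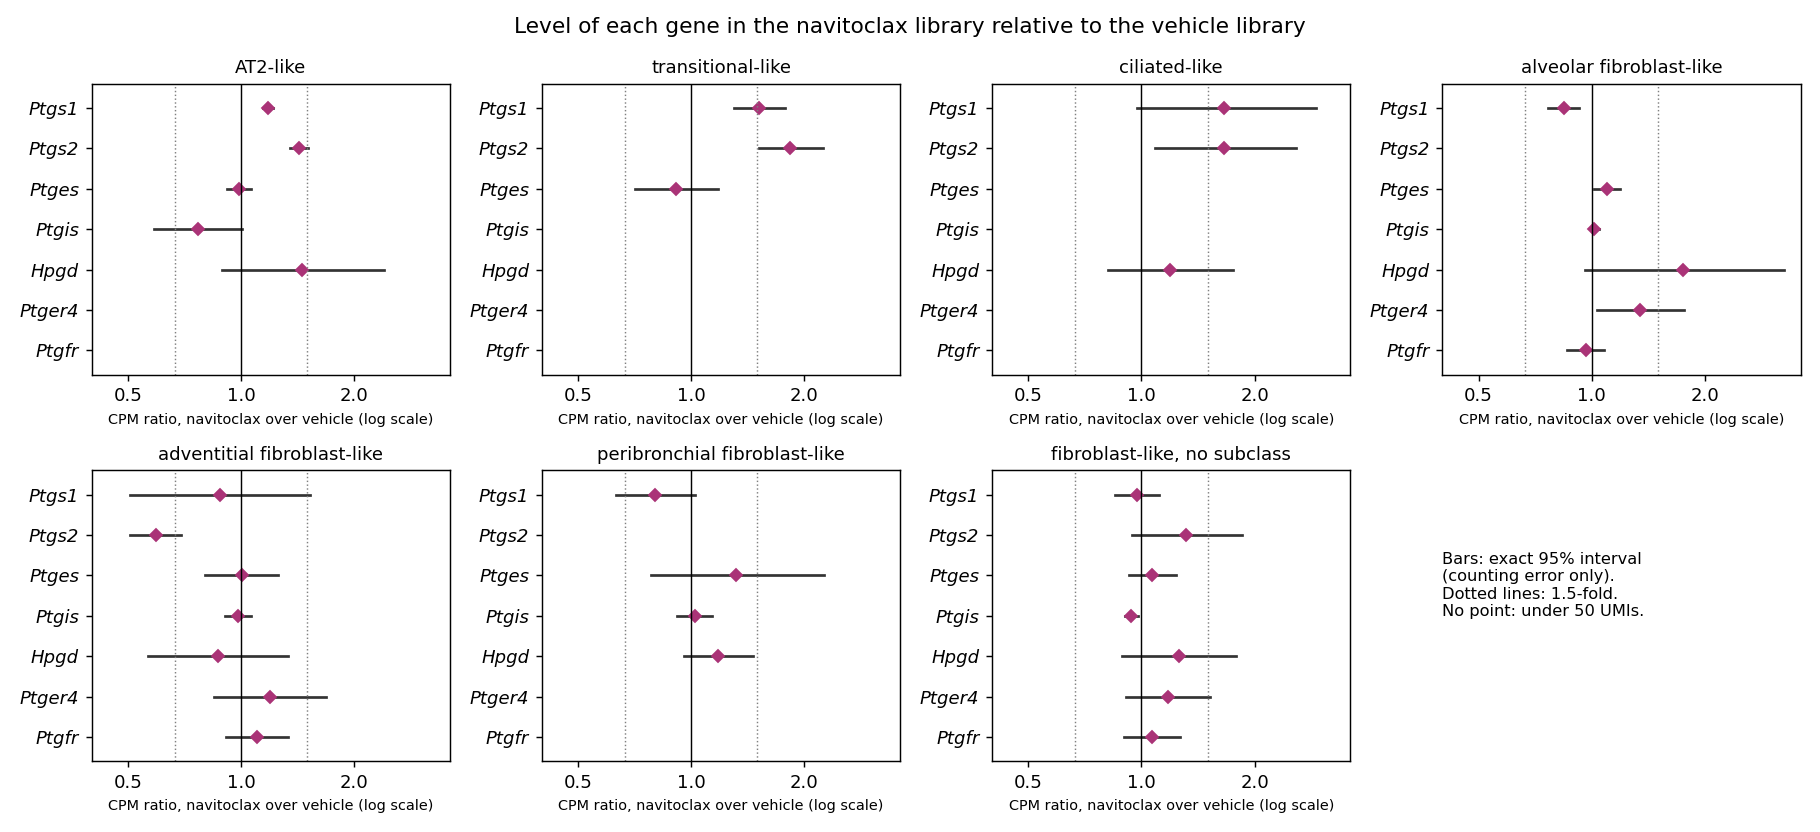
Ratio of the navitoclax to the vehicle level of each gene (horizontal axis, log scale) in 7 cell classes, with exact 95% intervals that cover counting error only and dotted lines at 1.5-fold. Ptgs2 lies at 1.43 in AT2-like, 1.84 in transitional-like and 1.66 in ciliated-like cells, and at 0.592 in adventitial fibroblast-like cells.

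Ptgs2 differed in opposite directions in alveolar AT2-like and adventitial fibroblast-like cells. It was 1.43-fold (1.35 to 1.5) higher with navitoclax in AT2-like cells, 1.84-fold (1.51 to 2.24) higher in transitional-like cells and 1.66-fold (1.09 to 2.57) higher in ciliated-like cells, where it rested on 33 and 77 UMIs. In adventitial fibroblast-like cells it was 1.69-fold (1.45 to 1.98) lower. Each of these intervals leaves out 1, but takes UMIs as independent. The 450 and 264 adventitial UMIs lay in 84 and 82 cells, and the spread between cells is not in the interval. In cluster 4, which held 314 of the 366 vehicle and 349 of the 414 navitoclax ciliated-like cells, the ratio was 1.29 (0.763 to 2.22), whose interval includes 1. In cells without a subclass the ratio was 1.32 (0.941 to 1.85), whose interval includes 1.

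The shares of AT2-like cells with a Ptgs2 UMI were 29.4% (27.6 to 31.1%) and 38.4% (36.4 to 40.4%) with vehicle and navitoclax. Navitoclax cells were deeper. After each cell was thinned to 2000 UMIs, which left out 32 vehicle and 26 navitoclax cells, the shares were 7.66% and 10.5%, a difference of 2.88 percentage points (1.28 to 4.5). Alveolar fibroblast-like cells had 0.215% and 0.270% at that depth. In transitional-like cells the thinned shares were 10.1% and 15.1% and in ciliated-like cells 0.820% and 1.94%, and the intervals of both differences, 5.02 percentage points (-1.86 to 11.5) and 1.12 percentage points (-0.709 to 3.04), include 0.

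AT2-like cells fell into 11 clusters, some of which lay mostly in 1 library. Cluster 3 held 567 vehicle and 111 navitoclax cells, cluster 2 held 182 and 622, and cluster 5 held 41 and 444. Ptgs2 was higher with navitoclax in 8 of 8 clusters with at least 50 cells per library. In the 6 with at least 100, its ratio ran from 1.06 to 2.81, and the interval lay above 1 in 5. The levels with vehicle and navitoclax were 68.7 and 117 CPM in cluster 0 and 49.9 and 69.2 CPM in cluster 3. In cluster 9 they were 86.5 and 91.4 CPM, a ratio of 1.06 (0.891 to 1.25).

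Across these clusters the 2 cyclooxygenase genes took roughly opposite orders. Clusters 1 and 2, both with Fabp5 and Lrg1 among their leading genes, had the most Ptgs1, at 217 and 216 CPM and at 226 and 232 CPM, and low Ptgs2, at 19.2 and 33.3 CPM and at 31.7 and 39.3 CPM. Cluster 9, led by Lyz2, Lyz1, Cxcl15 and also Lrg1, had the least Ptgs1, at 54.7 and 63.5 CPM, and with vehicle the most Ptgs2. Over the 8 clusters Pearson's r of the log2 levels was -0.78 with vehicle and -0.62 with navitoclax, and Spearman's rho -0.79 and -0.55. The clusters share a library, so these are descriptions. In single AT2-like cells thinned to 5000 UMIs, 44.0% of vehicle cells with a Ptgs2 UMI had a Ptgs1 UMI, against 47.3% of the rest, and with navitoclax 49.2% against 53.6%.

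**Figure D3:**
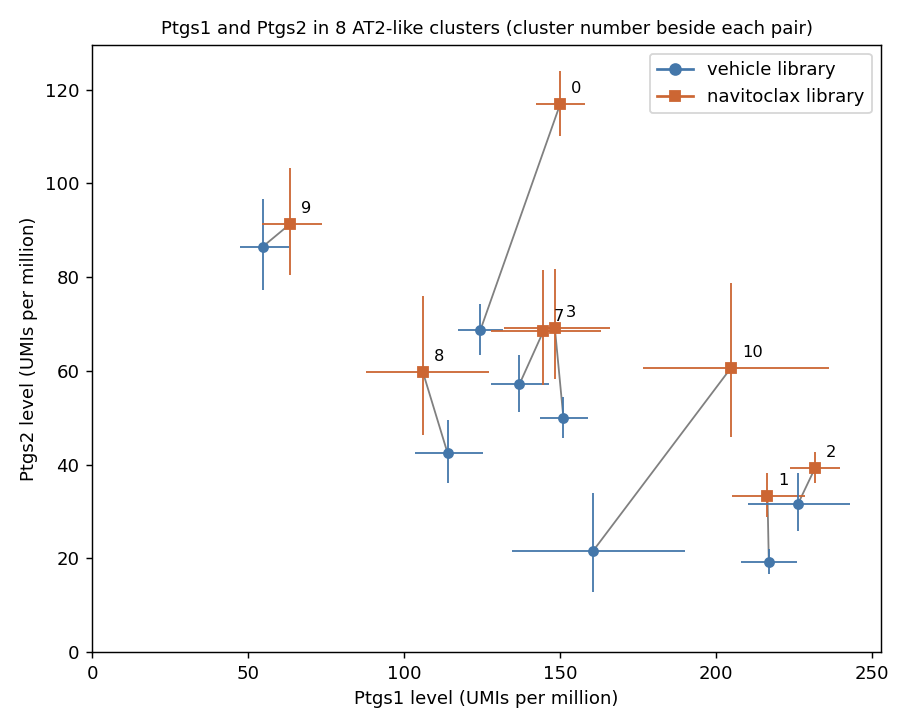
Ptgs1 level (horizontal) against Ptgs2 level (vertical), both in CPM, in 8 AT2-like clusters numbered beside each pair, with a line from the vehicle (circle) to the navitoclax library (square) and exact Poisson 95% intervals. All 8 lines go up, and clusters 1 and 2, with the most Ptgs1, are low in Ptgs2.

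Ptgs1 was 1.18-fold (1.14 to 1.22) higher with navitoclax in AT2-like cells and 1.52-fold (1.30 to 1.77) higher in transitional-like cells, at a ratio of 1.66 (0.975 to 2.91) in ciliated-like cells and 0.843 (0.766 to 0.927) in alveolar fibroblast-like cells. In AT2-like clusters with at least 100 cells per library its ratio was above 1 in 4 of 6 and ran from 0.982 to 1.28. The interval lay above 1 in 2 of them. Over 16 alternatives the AT2-like log2 ratio ran from 0.095 to 0.28, beside 0.24 as reported. The transitional-like ratio was 1.09 when each cell was named from its own markers. The alveolar fibroblast-like ratio was 0.976 when each library was clustered alone.

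Markers of immune cells other than Lyz1 were low beside these values. Of 9 macrophage and monocyte markers, 1 was at or above 20 CPM in AT2-like cells, Lyz1, which is also a leading gene of AT2-like clusters, and 3 were at 0 with vehicle and 4 with navitoclax. The list summed to 1221 and 1513 CPM there. In adventitial fibroblast-like cells 0 of 9 reached 20 CPM, and the list summed to 13.6 and 19.2 CPM. Neutrophil markers summed to 1.13 and 1.21 CPM in AT2-like cells.

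Areg, which encodes the growth factor amphiregulin and is known as a cAMP-responsive gene, was higher in these epithelial classes, and also in alveolar fibroblast-like cells. Areg was not left out of the clustering and is among the 10 markers used to name the transitional-like class. It stood at 52.8 and 87.4 CPM in AT2-like cells (1.65-fold (1.57 to 1.74)), at 311 and 449.9 CPM in transitional-like cells (1.45-fold (1.33 to 1.57)) and at 230.2 and 333 CPM in ciliated-like cells (1.45-fold (1.33 to 1.57)). In alveolar fibroblast-like cells, from 14 and 54 UMIs, it was 4.5-fold (2.47 to 8.77) higher, beside a Ptgs2 ratio of 1.02. Of 12 cAMP response genes measured in AT2-like cells, Areg alone was past 1.5-fold (background 3.53%), and 6 had a ratio above and 6 below 1. In AT2-like cells thinned to 5000 UMIs, 23.7% of vehicle cells with a Ptgs2 UMI also had an Areg UMI, against 13.3% of the rest, and with navitoclax 29.9% against 19.9%. For Ptges the same shares were 14.1% against 13.4% with vehicle and 12.0% against 12.7% with navitoclax. At 2000 UMIs the shares for Ptges were 6.4% against 5.68% and 2.02% against 4.82%, the third of these from 5 cells. Those for Areg were 12.8% against 8.01% and 16.6% against 11.3%. Areg was thus more frequent in cells with a Ptgs2 UMI at both depths in both libraries.

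The adventitial difference in Ptgs2 lay in 1 of 2 clusters. Cluster 26, led by Pi16, Ccl11 and Dcn, with Scara5, Ebf1 and Ccl8, stood at 292 CPM (263 to 322) with vehicle and 137 CPM (118 to 159) with navitoclax, from 381 UMIs in 180 cells and 182 UMIs in 167 cells. Cluster 27, led by Pi16, Ccl11 and Apod, with Igfbp4, Meg3 and Col14a1, stood at 42.2 CPM (32.8 to 53.4) with vehicle and 51.6 CPM (41.0 to 64.0) with navitoclax. The ratios were 0.470 (0.392 to 0.563) and 1.22 (0.876 to 1.71), and these intervals do not overlap.

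In cluster 26 a Ptgs2 UMI was found in 64 of 180 vehicle cells (35.6%) and 58 of 167 navitoclax cells (34.7%), at median depths of 7319 and 8258 UMIs. Positive cells held 5.95 Ptgs2 UMIs on average with vehicle and 3.14 with navitoclax, and cells with at least 5 numbered 25 and 11. The shares of positive cells were thus alike where the UMIs per positive cell differed. Over the whole adventitial class the shares were 25.1% and 27.8%, a difference of 2.65 percentage points (-4.23 to 9.56). After thinning to 2000 UMIs they were 15.0% and 13.8%, a difference of -1.21 percentage points (-6.88 to 4.60). These intervals include 0, so the lower level was not seen as a lower share of positive cells. In the whole adventitial class the 5% of cells with most Ptgs2 held 61.1% of its UMIs with vehicle and 53.8% with navitoclax, and without them the ratio was 0.705.

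**Figure D4:**
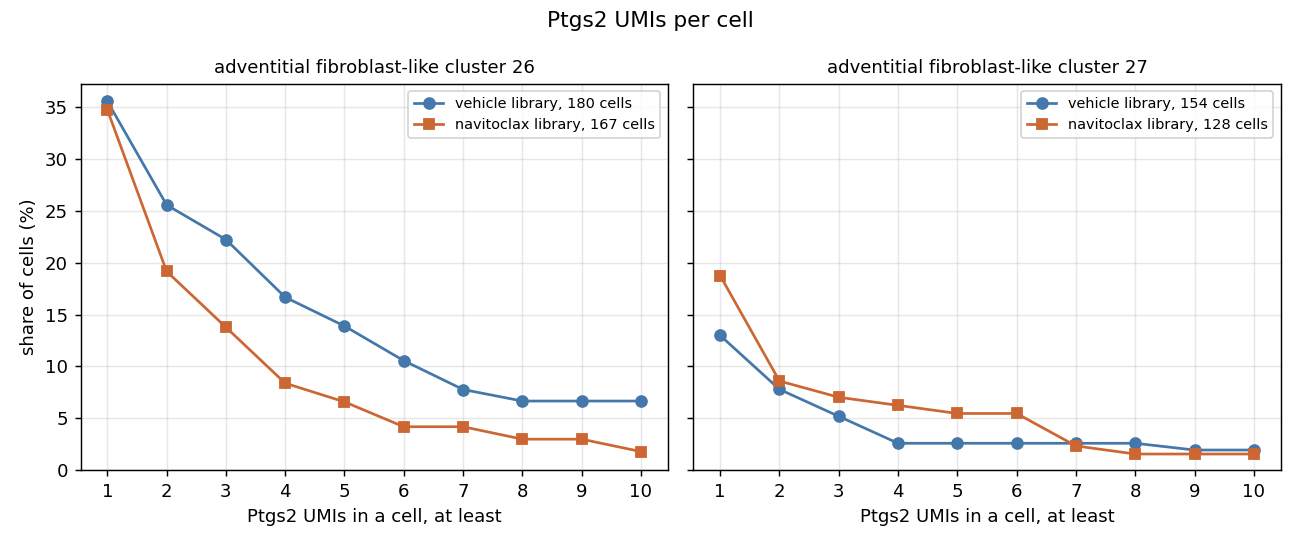
Share of cells (vertical, percent) with at least the given number of Ptgs2 UMIs (horizontal) in adventitial fibroblast-like clusters 26 and 27 of the vehicle (circles) and navitoclax (squares) library. In cluster 26 the curves start at 35.6% and 34.7% and separate at higher UMI numbers, with the vehicle library above.

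Genes known to switch on Ptgs2 or to clear its RNA were read from a list of 19 others. In AT2-like cells 19 were measured, and 1 was past 1.5-fold higher and 1 lower (2.07% and 1.46% of all genes). The median log2 ratio was -0.0043 beside -0.0050 for all genes. Medians of lists are of log2 ratios with 5 CPM added to both levels, which draws low genes toward 0. The gene past 1.5-fold higher was Egr1, an immediate-early transcription factor gene, at 91.3 and 142 CPM (1.56-fold (1.5 to 1.61)). The lower one was Zfp36, which encodes tristetraprolin, a factor that binds AU-rich pentamers like those shown above, at 235 and 143 CPM (1.64-fold (1.59 to 1.69) lower). Zfp36 was also lower in adventitial fibroblast-like cells, where Ptgs2 was lower, at 1213 and 929 CPM (1.31-fold (1.24 to 1.37) lower). Egr1 and Zfp36 are also on the list of dissociation stress genes read below, so they are counted there again. The part of Egr1 or Zfp36 in any Ptgs2 difference was not tested. In transitional-like cells 19 genes of the list were measured, and Egr1 alone was past the fold (background 6.24%), at 65.8 and 99.8 CPM.

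In adventitial fibroblast-like cells 18 of the 19 were measured. Zfp36l2, a relative of Zfp36, was lower, at 367 and 222 CPM (1.65-fold (1.5 to 1.83) lower), and Crem, a cAMP-induced transcription factor gene, higher, at 9.18 and 17.5 CPM (1.90-fold (1.17 to 3.16)). Of 9 cAMP response genes measured in these cells, 8 had a ratio below 1, with a median log2 ratio of -0.27 beside -0.0025 for all genes. Past 1.5-fold lower were 2, Sik1 at 36.0 and 22.6 CPM and Rgs2 at 19.0 and 8.57 CPM. The 1 with a ratio above 1 was Crem, which is on both lists and was past 1.5-fold higher. The cAMP response list lay the other way in peribronchial fibroblast-like cells, where 10 of 11 had a ratio above 1 (median log2 ratio 0.34 beside 0.0072 for all genes). It did so too over all fibroblast-like cells, with 11 of 14 above 1 (median 0.15 beside 0.0039). Rgs2 was nonetheless also lower in peribronchial (1725 and 980 CPM) and alveolar fibroblast-like cells (497 and 264 CPM). Of 23 dissociation stress genes measured, 6 were past 1.5-fold higher in adventitial cells, 5 of them heat shock genes that were also higher in AT2-like cells, and 0 lower. The list as a whole was split, with 11 above and 12 below a ratio of 1. In AT2-like cells 7 of 23 were past 1.5-fold higher, Egr1 among them, and 1 lower, Zfp36, with 13 above and 10 below 1. Of all genes, 2.07% were past 1.5-fold higher and 1.46% lower in AT2-like cells. In adventitial fibroblast-like cells these shares were 3.16% and 3.71%. The part of the stress genes in either Ptgs2 difference was not tested.

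At the level of whole classes the synthases differed less. Ptgis had a ratio of 1.02 (0.99 to 1.04) in alveolar, 0.982 (0.907 to 1.06) in adventitial and 1.02 (0.917 to 1.13) in peribronchial fibroblast-like cells. In cells without a subclass it was 0.94 (0.904 to 0.978), a direction that was reversed in 2 of 14 alternatives. Ptges had a ratio of 1.10 (1.02 to 1.19) in alveolar and 1.00 (0.799 to 1.26) in adventitial fibroblast-like cells and 0.986 (0.915 to 1.06) in AT2-like cells. Within 5 AT2-like clusters its ratio ran from 0.681 to 1.11. It was above 1 in 1 of them, and the interval lay below 1 in 1. The AT2-like log2 ratio of Ptges was negative in 16 of 16 alternatives (-0.37 to -0.011). The part of cluster make-up in the AT2-like ratio was not tested. Of 11 other prostanoid synthase genes, 10 were measured in AT2-like and 9 in alveolar fibroblast-like cells. Past 1.5-fold were 0 in either class, beside backgrounds of 3.53% and 4.10%.

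Hpgd was 1.41-fold (1.20 to 1.65) higher with navitoclax over all fibroblast-like cells. In peribronchial fibroblast-like cells, which held 152 of its 289 vehicle and 224 of its 374 navitoclax UMIs in fibroblast-like cells, the ratio was 1.18 (0.957 to 1.46). The 5% of fibroblast-like cells with most Hpgd held 99.3% and 88.2% of those UMIs, since only 5.05% and 6.48% of the cells had one. The peribronchial class made up 222 of 3567 vehicle and 246 of 2978 navitoclax fibroblast-like cells. The alveolar fibroblast-like ratio of 1.75 (0.961 to 3.25), past 1.5-fold, rested on 20 and 30 UMIs, and its interval includes 1. Of 9 other breakdown and transport genes, 6 were measured in alveolar fibroblast-like cells and 1 was past 1.5-fold (background 4.10%). It was Ptgr1, a prostaglandin reductase gene, at 6.53 and 10.6 CPM (1.63-fold (1.24 to 2.14)). In AT2-like cells 7 were measured and 0 were past the fold (background 3.53%).

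Genes that supply the substrate showed no ratio past 1.5-fold. Few genes of any kind were past it (background 3.53% in AT2-like and 4.10% in alveolar fibroblast-like cells), so nothing is read from this. Of 15 arachidonate release genes, 10 were measured in AT2-like cells, with a median log2 ratio of -0.05, and 9 in alveolar fibroblast-like cells, with 0.09, both with 5 CPM added (-0.08 and 0.13 with 1 CPM). Pla2g4a, the cytosolic phospholipase A2 gene, stood at 107 and 103 CPM in ciliated-like cells, 51.7 and 54.8 CPM in adventitial fibroblast-like cells and 3.12 and 3.71 CPM in AT2-like cells. Adventitial fibroblast-like cells thus held it beside Ptgs2.

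Most receptor genes measured in alveolar fibroblast-like cells had a ratio above 1. There Ptger4 had a ratio of 1.35 (1.04 to 1.76) and Ptgfr of 0.964 (0.860 to 1.08). Of 9 other genes on the receptor list, which includes the nuclear receptor gene Pparg and the Ptgfr regulator gene Ptgfrn, 7 were measured. All 7 had a ratio above 1, with a median log2 ratio of 0.24 beside 0.0037 for all genes. Past 1.5-fold were 0 (background 4.10%). Ptger2, a prostaglandin E2 receptor gene that couples to cAMP, stood at 31.6 and 43.9 CPM (1.39-fold (1.22 to 1.58)), and Ptger1 at 12.4 and 17.5 CPM (1.42-fold (1.16 to 1.74)). In peribronchial fibroblast-like cells Ptger2 was lower instead, at 83.0 and 48.4 CPM (1.72-fold (1.27 to 2.32) lower). The difference between these classes was not tested. After thinning to 2000 UMIs the Ptger4 ratio in alveolar cells was 1.05.

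**Figure D5:**
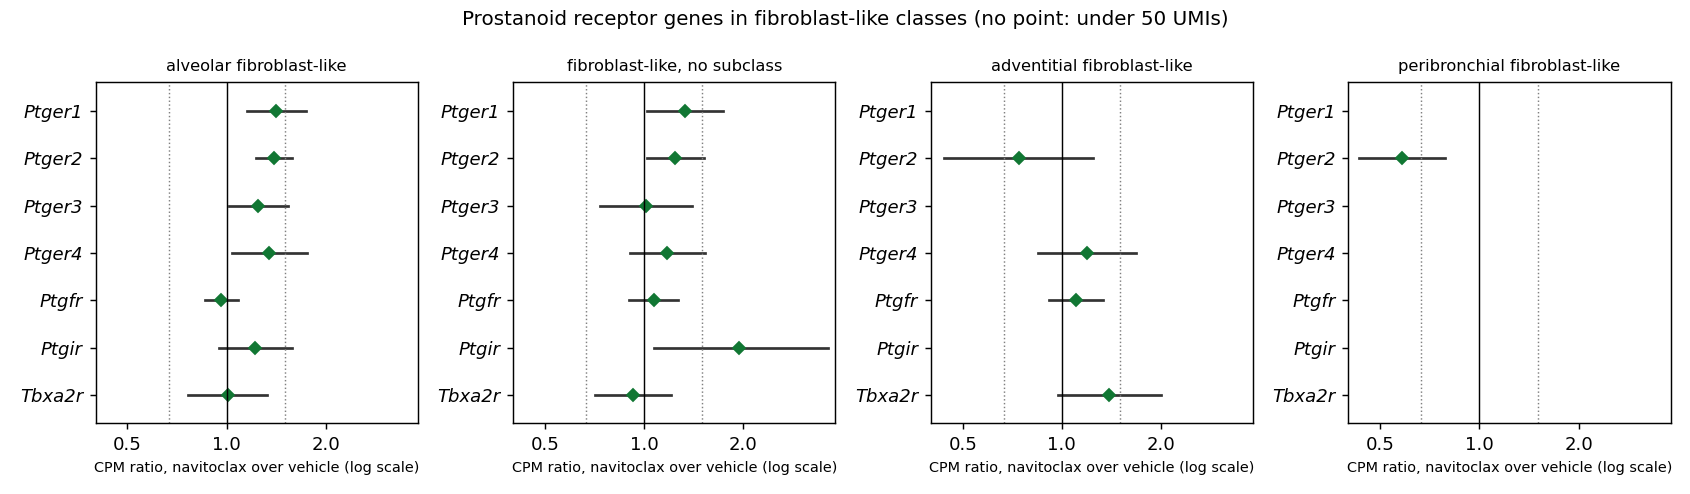
Ratio of the navitoclax to the vehicle level (horizontal axis, log scale) of 7 prostanoid receptor genes in 4 fibroblast-like classes, with exact 95% intervals and dotted lines at 1.5-fold. Ptger2 lies at 1.39 in alveolar and 0.583 in peribronchial fibroblast-like cells.

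The 3 genes with levels most like those of a given gene are named for 5 of the 7 genes. They were found over 18 sums, 9 classes in each library, by Pearson's r of log2(CPM + 1), among genes that reached 50 CPM in some sum. For Ptgs1 they were Phldb2 (0.905), St6galnac4 (0.895) and Cyp51 (0.895), and for Ptgs2 Tuba1c (0.882), Cd200 (0.854) and Anpep (0.825). For Ptges they were Nrp1 (0.979), Bmp4 (0.973) and Slc1a3 (0.965), and for Ptgis Sod3 (0.997), Fxyd1 (0.997) and Pla2r1 (0.996). Hpgd was most like Igfbp5 (0.947), Sntg2 (0.94) and Id4 (0.879). Classes under 50 cells in either library gave no sum, among them mesothelial-like and endothelial-like cells. Their Hpgd levels lay above those of the 9 classes used, as did the Ptgs1 level of mesothelial-like cells. The cyclooxygenase genes, present in both epithelium and stroma, had no gene as close as those of Ptgis. The sums share libraries and a division into epithelium and stroma, so these values carry no p.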

How the data were processed

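Deposited values were raw UMI counts by gene and barcode, written by the authors' run of Cell Ranger 4.0.0 per the file headers, on build mm10 per the submitters' processing notes. Cells needed 500 genes and no more than 15% mitochondrial UMIs. Doublets called by Scrublet in scanpy 1.11.5 (222 vehicle, 217 navitoclax) were removed. Both libraries were clustered together with leidenalg 0.10.2 (2000 variable genes, 30 components, Leiden resolution 1). Left out of the clustering were the 7 genes and the lists of arachidonate release, synthase, breakdown and transport, receptor and leukotriene genes. Genes only on the lists of Ptgs2 regulators, cAMP response or dissociation stress were not left out. Clusters were named from markers at 20 CPM or more, by a scoring rule set after the data were seen. Free RNA was not subtracted. The rule named all 7 genes, and from each list the up to 3 genes per class that differed most on the log2 scale among those reaching 50 UMIs. Other named genes, and values in classes under 50 cells, were chosen after their values were seen. The members and lists were chosen with earlier results of these data known. The genes most like Ptger4 and Ptgfr are not reported here. The ratio intervals were run on simulated independent Poisson counts, for which they are exact by design. That run cannot show how they behave where UMIs are clumped in few cells. Alternatives covered filters, doublets, clustering, naming, scaling, depth and top cells.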

Additional observations from a re-analysis of the deposited data

Results flagged for a closer look

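The navitoclax to vehicle ratio of Ptgs2 went in opposite directions between classes, and this difference was not tested, since each group is 1 library. It was 1.43 in AT2-like cells, 1.84 in transitional-like cells and 1.66 in ciliated-like cells, against 0.592 in adventitial fibroblast-like cells. For Ptgs1 it was 1.18 in AT2-like and 1.52 in transitional-like cells, against 0.843 in alveolar fibroblast-like cells, also not tested. The Ptgs1 interval lay above 1 in 2 of 6 AT2-like clusters.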

How the results depend on the processing

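The log2 ratio of Ptgs2 kept its sign in 16 of 16 alternatives in AT2-like cells (0.47 to 0.63) and in adventitial fibroblast-like cells (-1.11 to -0.51), in 14 of 14 in ciliated-like cells (0.70 to 1.24) and in 11 of 11 in transitional-like cells. It moved beyond the interval of its reported value in AT2-like cells to 0.63 with the mean over cells and to 0.62 without the 5% of cells with most of its UMIs, and in adventitial fibroblast-like cells to -0.51 without those cells and to -1.11 with each library clustered alone. In transitional-like cells Ptgs2 moved to 0.48 with the pathway genes in the clustering, and Ptgs1 to 0.38 at resolution 2 and to 0.12 with each cell named alone. Shares of positive cells depended on depth. The difference was 12.3 points at 5000 UMIs and 11.4 points without thinning for Ptgs1 in transitional-like cells (1.73 at 2000 UMIs), 9.06 points without thinning for Ptgs2 in AT2-like cells, and 3.78 and 6.19 points at 5000 UMIs and without thinning for Ptgs2 in ciliated-like cells (1.12 at 2000 UMIs). Ptgis changed sign in fibroblast-like cells without a subclass, to 0.044 with the pathway genes in the clustering and to 0.14 with each library clustered alone, and over all fibroblast-like cells to 0.021 with clusters weighted equally. The cause was not tested. The transitional-like class gave no value with 30% or 10% mitochondrial limits, without stress genes in the clustering, or with each library clustered alone. Removing the top 5% of cells, weighting clusters equally and using only cells with 5000 UMIs were chosen after seeing the data. No paired analysis was possible because each group has 1 library.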
